A study of Mus musculus with 2 samples.

Results

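Ccl6 (ENSMUSG00000018927), Ccl9 (ENSMUSG00000019122) and Ccr1 (ENSMUSG00000025804) were followed as a chemokine pair and their receptor. These 3 of the 56941 genes in the count matrices were taken by symbol, with earlier results of these data known. Their ranks among all genes below are therefore descriptions. Each symbol matched 1 row. The cells were CD45+ cells of liver metastases in C57BL/6 mice that were 6 to 8 weeks old at the intrasplenic injection of MC38-LM3b, a liver-metastatic derivative of the murine colorectal cancer line MC38, and that were killed 2 weeks later. The hairpin was a scrambled one (MC38-LM3b-shScramble, Ctrl) or one against SLAMF3 (MC38-LM3b-shSLAMF3, KD), and it was in the injected tumor cells, not in the immune cells described here. Lesions of 3 mice were pooled into 1 library per group. Mouse, library and group therefore cannot be told apart, no test was made, and each interval below is a 95% interval that covers counting error only.

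The Ctrl library held 10416 barcodes and 67207234 UMIs (unique molecular identifiers, each standing for 1 captured RNA molecule), and the KD library held 10943 barcodes and 64444715 UMIs. The filters kept 9814 cells of Ctrl and 10185 of KD, whose median depths were 5412 and 4989 UMIs. The libraries shared 27 barcodes. Ly9, which encodes SLAMF3, had 12 UMIs in Ctrl and 7 in KD in the tumor- or fibroblast-like cells of this CD45+ selection, a log2 ratio of -0.14 (-1.73 to 1.32), so the knockdown itself could not be checked at this depth. Levels are given as CPM, the UMIs of a gene in the pooled cells scaled to 1000000 UMIs of all genes, and differences as the log2 ratio of KD over Ctrl. Genes with chemokine or chemokine receptor symbols (Ccl, Cxcl, Ccr and the like) were left out of the clustering. Pf4, a chemokine gene with another kind of symbol, was not left out. Clusters were named from marker genes. This gave classes called mononuclear phagocyte-like (macrophage-like, cycling macrophage-like and monocyte-like clusters, 3210 Ctrl and 2625 KD cells), neutrophil-like (807 and 2306 cells), T cell-like and so on.

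CC chemokines are small secreted proteins that direct the movement of leukocytes through receptors coupled to inhibitory G proteins. CCL6 and CCL9 are made mainly by myeloid cells, and both carry an extended amino terminus that proteases can trim, which raises their activity at CCR1. CCR1 is carried by neutrophils and monocytes, among other cells, and the CCL9 and CCR1 pair is known for drawing immature myeloid cells to colorectal tumors in mice.

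The promoters of the 3 genes are shown because the levels of Ccl6 and Ccl9 differed between the libraries in mononuclear phagocyte-like cells and that of Ccr1 did not. All 3 genes matched the RefSeq promoter table, which is of build GRCm38.p6, while the submitters' processing notes name GRCm39 for the counts. Each line gives the 250 bases before the annotated start, 5′ to 3′ on the strand of the gene, with capitals for 3 short motifs searched on both strands: AGGAAG, the core bound by ETS factors such as PU.1, then ATTGCAA, of the type bound by C/EBP factors, and lastly TATAAA, of the core promoter type. The motifs were chosen after the sequences had been read. The Ccl6 stretch is chr11:83593088-83593337, the Ccl9 stretch chr11:83578637-83578886 and the Ccr1 stretch chr9:123968693-123968942, all on the minus strand.
Ccl6: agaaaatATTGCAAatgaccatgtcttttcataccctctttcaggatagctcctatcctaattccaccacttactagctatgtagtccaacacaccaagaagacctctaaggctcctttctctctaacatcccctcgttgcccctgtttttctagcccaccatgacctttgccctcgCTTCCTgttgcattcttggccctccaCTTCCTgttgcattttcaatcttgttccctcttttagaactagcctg
Ccl9: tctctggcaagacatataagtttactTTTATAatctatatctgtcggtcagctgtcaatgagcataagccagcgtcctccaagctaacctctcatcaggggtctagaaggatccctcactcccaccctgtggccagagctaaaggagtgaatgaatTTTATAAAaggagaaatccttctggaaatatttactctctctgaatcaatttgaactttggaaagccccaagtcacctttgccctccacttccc
Ccr1: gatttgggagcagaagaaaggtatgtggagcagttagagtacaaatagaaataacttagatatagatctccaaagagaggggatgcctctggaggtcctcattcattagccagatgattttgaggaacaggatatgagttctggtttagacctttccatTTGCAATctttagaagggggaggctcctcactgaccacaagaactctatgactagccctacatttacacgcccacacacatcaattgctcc

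The Ccl6 promoter held AGGAAG 2 times, on the opposite strand, 73 to 68 and 47 to 42 bases before the start. AGGAAG was present in 29.5% of 32851 promoters of the same length. ATTGCAA occurred 1 time in Ccl6 (243 to 237 bases before the start) and 1 time in Ccr1 (91 to 85 bases before it), against 1.96% of all promoters. TATAAA was found only in Ccl9 among the 3, 224 to 219 bases before the start and, on both strands with overlap, 94 to 87 bases before it, against 12.4% of all promoters. Ccl6 and Ccl9 shared an identical run of 13 bases, 55 to 43 bases before the start of Ccl6 and 14 to 2 bases before that of Ccl9, which 5 promoters of the table held. In the spliced transcripts (GENCODE vM21) the longest identical run was 25 bases between Ccl6 and Ccl9, and 31 bases between Ccr1 and its neighbor Ccr1l1, a receptor-like gene that had 2 UMIs in all named classes together.

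Ccl6 was a transcript of mononuclear phagocytes, Kupffer-like cells and neutrophils in both libraries. Its level in Ctrl was 573 CPM (563 to 582) in mononuclear phagocyte-like cells, 519 CPM (453 to 593) in Kupffer cell-like cells, 399 CPM (372 to 428) in neutrophil-like cells and 243 CPM (225 to 263) in cDC-like cells (conventional dendritic cells). In KD the same classes stood at 1570 CPM (1554 to 1586), 1567 CPM (1470 to 1669), 911 CPM (890 to 932) and 276 CPM (262 to 291). Mononuclear phagocyte-like and Kupffer cell-like cells did not differ beyond counting error in either library, while each further step down to cDC-like cells did. The other classes held 11.9 to 26.1 CPM in Ctrl and 18.0 to 165 CPM in KD.

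Ccl9 was more restricted. In Ctrl it reached 155 CPM (150 to 160) in mononuclear phagocyte-like cells, 37.6 CPM (30.7 to 45.6) in cDC-like cells, 27.2 CPM (20.5 to 35.4) in neutrophil-like cells and 18.9 CPM (8.15 to 37.2, from 8 UMIs) in Kupffer cell-like cells. The step from mononuclear phagocyte-like to cDC-like cells exceeded counting error, and the steps among the last 3 did not. In KD it was 446 CPM (437 to 455) in mononuclear phagocyte-like cells, 138 CPM (110 to 170) in Kupffer cell-like cells, 105 CPM (96.9 to 115) in cDC-like cells and 46.2 CPM (41.6 to 51.2) in neutrophil-like cells, and each of these steps exceeded counting error. The number of Ccl6 UMIs per Ccl9 UMI differed between the main classes: it was 3.69 (3.56 to 3.83) in Ctrl and 3.52 (3.44 to 3.60) in KD mononuclear phagocyte-like cells, but 14.7 (11.1 to 19.6) and 19.7 (17.7 to 21.9) in neutrophil-like cells. It did not order all classes, since cDC-like cells stood at 6.47 (5.25 to 8.04) in Ctrl and 2.62 (2.37 to 2.89) in KD, and Kupffer cell-like cells of KD at 11.4 (9.11 to 14.3). This 3′ assay counts a molecule at its end, so that transcript length does not enter, but the genes may differ in capture.

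By CPM, Ccr1 was highest in neutrophil-like cells. Neutrophil-like cells held 966 CPM (924 to 1010) in Ctrl and 726 CPM (708 to 745) in KD, against 174 CPM (169 to 179.5) and 173 CPM (168 to 179) in mononuclear phagocyte-like cells. The step between these classes was 2.47 (2.39 to 2.55) on the log2 scale in Ctrl and 2.07 (2.01 to 2.12) in KD. The next classes were cDC-like cells, with 86.2 CPM (75.6 to 98.0) and 74.0 CPM (66.8 to 81.7), and Kupffer cell-like cells, with 73.2 CPM (49.7 to 104) and 38.5 CPM (24.7 to 57.3). Lymphocytes stood at 5.90 to 11.1 CPM. CPM is set against all UMIs of a class, and neutrophil-like cells had low depth, with medians of 2170 UMIs in Ctrl and 2858 in KD. In both libraries the median neutrophil-like cell held 2 Ccr1 UMIs and the median mononuclear phagocyte-like cell 1. Mononuclear phagocyte-like cells held 57.1% of the Ccr1 UMIs in Ctrl and 35.9% in KD, and neutrophil-like cells 27.3% and 53.4%. In each library, then, the class with the highest Ccr1 CPM was not the one with the highest Ccl6 or Ccl9 CPM.

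**Figure D1:**
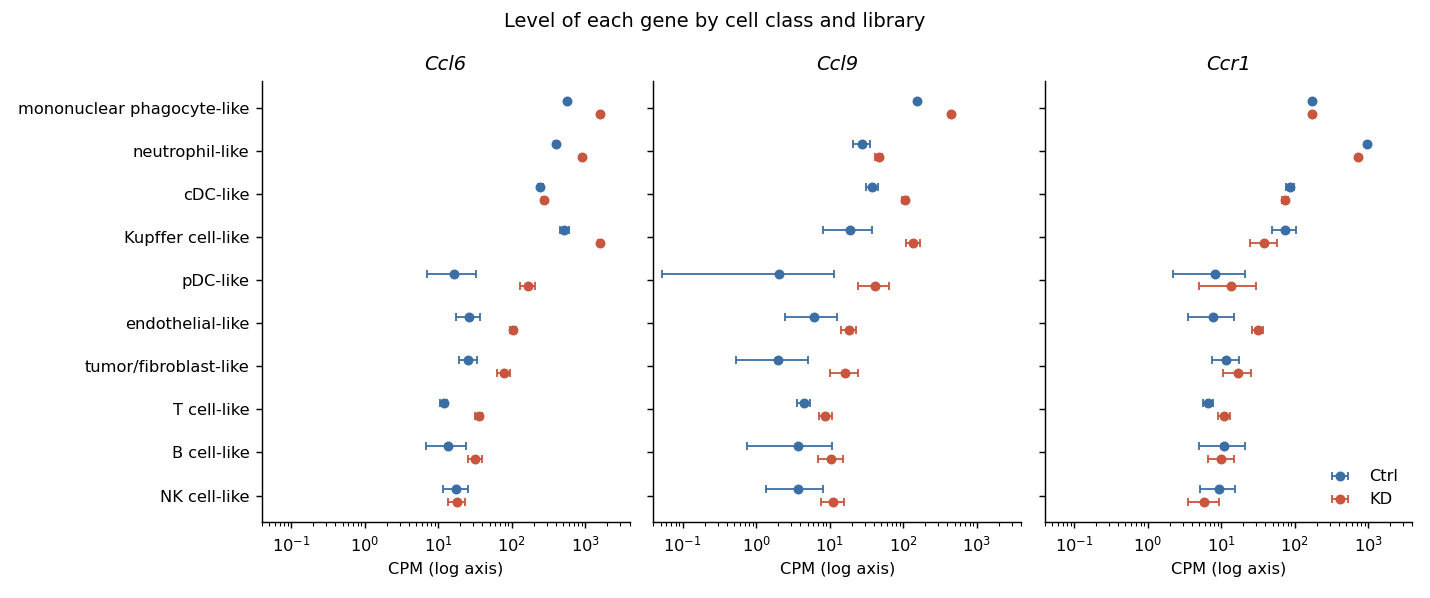
CPM of Ccl6, Ccl9 and Ccr1 (horizontal, log axis) in each named cell class, with Ctrl in blue and KD in red; bars are exact Poisson intervals for counting error. Ccl6 and Ccl9 are highest in mononuclear phagocyte-like cells (573 and 155 CPM in Ctrl), Ccr1 in neutrophil-like cells (966 CPM in Ctrl), and the other classes lie below mononuclear phagocyte-, Kupffer cell-, neutrophil- and cDC-like cells for each gene.

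Droplet libraries hold free RNA, so lymphocytes were used to gauge it. T cell-like cells held 11.9 CPM (10.5 to 13.3) of Ccl6 in Ctrl and 35.3 CPM (31.9 to 39.0) in KD, which was 2.07% and 2.25% of the level in mononuclear phagocyte-like cells. For Ccl9 these shares were 2.85% and 1.97%. B cell-like cells stood at 2.36% and 2.03% for Ccl6 and at 2.38% and 2.35% for Ccl9, and NK cell-like cells at 3.04% and 1.15% and at 2.40% and 2.50%. For Ccr1, T cell-like cells held 0.696% and 1.51% of the level in neutrophil-like cells. After each cell had been thinned to 1500 UMIs, a Ccl6 UMI was seen in 1.72% of Ctrl and 3.93% of KD T cell-like cells, against 39.6% (37.9% to 41.3%) and 62.0% (60.1% to 63.9%) of mononuclear phagocyte-like cells. Before thinning, the same shares stood at 6.73%, 12.3%, 72.0% and 90.7%, and the median cells held 7112, 5809, 6349 and 7918 UMIs. Thinning left out 745 Ctrl and 593 KD cells of all classes, of which 74 and 27 were mononuclear phagocyte-like. Ccr1 was seen in 0.620% and 0.998% of thinned T cell-like cells. The lymphocyte values serve only as this gauge, and the part of free RNA in them was not tested. Their Ccl6 values did not move alike between the libraries. The log2 ratio was 1.57 (1.35 to 1.80) in T cell-like and 1.24 (0.32 to 2.30) in B cell-like cells. In NK cell-like cells it was 0.051 (-0.63 to 0.76), within counting error.

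Both ligands were higher in KD mononuclear phagocyte-like cells. Ccl6 went from 573 to 1570 CPM, a log2 ratio of 1.45 (1.43 to 1.48) or 2.74-fold, and Ccl9 from 155 to 446 CPM, a log2 ratio of 1.52 (1.47 to 1.58) or 2.87-fold. Ccr1 stood at 174 and 173 CPM, a log2 ratio of -0.0053 (-0.069 to 0.058). Of 9732 genes with at least 200 UMIs in these cells, 1.72% were at least 2-fold higher in KD and 1.8% at least 2-fold lower. Ccl6 and Ccl9 lay above 99.3% of these genes, and Ccr1 above 47.7% of them. Counting error alone is a weak yardstick here: the interval lay above 0 for 28.2% of the genes and below 0 for 26.8%. The share of cells with a Ccl9 UMI after thinning was 17.3% (15.9% to 18.6%) in Ctrl and 38.6% (36.7% to 40.5%) in KD, and for Ccr1 it was 20.8% (19.4% to 22.3%) and 21.4% (19.9% to 23.1%).

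The clusters of this class were filled unequally by the libraries, so they are given apart. In the macrophage-like cluster (2406 Ctrl and 1444 KD cells) Ccl6 went from 604 to 908 CPM, a log2 ratio of 0.59 (0.55 to 0.63), and Ccl9 from 156 to 317 CPM, 1.03 (0.95 to 1.10). In the monocyte-like cluster (381 and 1085 cells) Ccl6 went from 857 to 2588 CPM, 1.59 (1.53 to 1.66), and Ccl9 from 308 to 647 CPM, 1.07 (0.96 to 1.19). The cycling macrophage-like cluster (423 and 96 cells) had log2 ratios of 1.80 (1.69 to 1.91) for Ccl6, from 313 to 1093 CPM, and 2.10 (1.89 to 2.32) for Ccl9. Both ligands were thus higher in KD in each of the 3 clusters. Ccr1 had log2 ratios of 0.025 (-0.053 to 0.10), -0.24 (-0.40 to -0.077) and 0.036 (-0.22 to 0.29) in the same order.

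The difference showed in the median cell and at the upper end, with all sub-clusters of the class pooled. These UMIs are not scaled to depth, whose median was 6349 UMIs in Ctrl and 7918 in KD. The median mononuclear phagocyte-like cell held 2 Ccl6 UMIs in Ctrl and 5 in KD. The 90th percentile was 10 and 34 UMIs. For Ccl9 the medians were 0 and 2 UMIs. The highest cell held 131 Ccl6 UMIs in Ctrl and 237 in KD. The tenth of cells with the most Ccl6 carried 54.2% of its UMIs in Ctrl and 51.8% in KD, and for Ccl9 these shares were 57.4% and 41.6%.

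Markers of other cells also differed within this class. The summed level of 10 neutrophil markers was 468 CPM in Ctrl and 1407 CPM in KD, with 8 of 10 higher in KD and none at 0, and that of 6 immature neutrophil markers was 24.3 and 245 CPM, with 6 of 6 higher. Among cells without any S100a8 or S100a9 UMI, 2559 in Ctrl and 853 in KD, the log2 ratios were 1.46 for Ccl6, 1.54 for Ccl9 and -0.12 for Ccr1. The summed level of 10 macrophage markers was 9806 and 11449 CPM, with 5 of 10 higher. That of 5 eosinophil markers was 8.80 and 45.1 CPM, with 4 of 5 higher and 1 at 0 in both. The part of eosinophils in the ligand difference was not tested.

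In neutrophil-like cells Ccl6 was higher and Ccr1 lower in KD. Ccl6 went from 399 to 911 CPM, a log2 ratio of 1.19 (1.08 to 1.30), and Ccr1 from 966 to 726 CPM, a log2 ratio of -0.41 (-0.49 to -0.34). Among 4306 genes with at least 200 UMIs in these cells, 4.83% were at least 2-fold higher and 6.04% at least 2-fold lower, and the interval lay above 0 for 34.6% and below 0 for 23.6%. Ccl6 lay above 97.1% of these genes and Ccr1 above 18.0%. In the largest cluster of the class (737 Ctrl and 1885 KD cells) the log2 ratios were 1.27 (1.15 to 1.39) and -0.30 (-0.38 to -0.22). In the immature neutrophil-like cluster (38 and 334 cells) they were 1.09 (0.76 to 1.44) and -0.025 (-0.33 to 0.29). A Ccr1 UMI was seen after thinning in 72.0% (68.5% to 75.4%) of Ctrl and 66.1% (64.0% to 68.1%) of KD cells, so that the lower CPM went with a small difference in the share of cells. For Ccl6 the shares were 29.9% (26.5% to 33.5%) and 54.5% (52.4% to 56.7%).

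Ccl9 in neutrophil-like cells rested on few molecules and on cells that also held macrophage genes. It had 55 UMIs in Ctrl and 369 in KD, 27.2 and 46.2 CPM, a log2 ratio of 0.76 (0.35 to 1.20). 1 Ctrl cell carried 17 of the 55 UMIs, and 1 KD cell carried 23. Without these 2 cells the log2 ratio was 1.20 (0.72 to 1.73). Sub-cluster 6, with 9 macrophage markers, of whose cells 81.8% in Ctrl and 86.0% in KD were marked as likely doublets, was 3.73% of the KD cells of the class and held 52.6% of its Ccl9 UMIs. Sub-cluster 5 had 24 Ctrl and 111 KD cells of low depth and held 0 and 3 Ccl9 UMIs. The marker rule called it macrophage-like by 3 of 10 markers (C1qb, Apoe and Adgre1). Its Ccr1 level, 1692 CPM in Ctrl and 1002 CPM in KD, was above that of mononuclear phagocyte-like cells (174 and 173 CPM), so this name is uncertain. Without cells that held a C1qa, C1qb or C1qc UMI, which left 488 Ctrl and 1573 KD cells, the log2 ratio was -0.054 (-0.56 to 0.48). The level in T cell-like cells was 16.2% of that in neutrophil-like cells in Ctrl and 19.0% in KD. The summed level of 10 macrophage markers in neutrophil-like cells was 554 CPM in Ctrl and 870 CPM in KD, with 9 of 10 higher and none at 0. A direction for Ccl9 in neutrophil-like cells is therefore not given.

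In cDC-, Kupffer cell-, endothelial-, T cell- and pDC-like cells both ligands were higher in KD, by different amounts. Ccl6 in NK cell-like cells (0.051, -0.63 to 0.76) and Ccl9 in B cell-like cells (1.51, -0.20 to 3.88) were within counting error. In cDC-like cells Ccl9 went from 37.6 to 105 CPM, a log2 ratio of 1.49 (1.18 to 1.80), while Ccl6 had a log2 ratio of 0.18 (0.049 to 0.32) and Ccr1 one of -0.22 (-0.46 to 0.018). Kupffer cell-like cells, only 48 in Ctrl and 83 in KD, had log2 ratios of 1.59 (1.38 to 1.81) for Ccl6, 2.87 (1.83 to 4.13) for Ccl9, from 8 and 86 UMIs, and -0.93 (-1.76 to -0.11) for Ccr1, from 31 and 24 UMIs. Endothelial-like cells held 7.84 and 31.5 CPM of Ccr1, from 9 and 136 UMIs, a log2 ratio of 2.01 (1.04 to 3.17), and their Ccl6 and Ccl9 log2 ratios were 2.00 (1.47 to 2.59) and 1.58 (0.47 to 2.95). In T cell-like cells the log2 ratios were 1.57 (1.35 to 1.80) for Ccl6, 0.99 (0.58 to 1.40) for Ccl9 and 0.70 (0.35 to 1.05) for Ccr1. These were at the low levels that serve above as the gauge of free RNA. pDC-like cells (plasmacytoid dendritic cells) held 8 Ccl6 UMIs in Ctrl and 73 in KD. The part of free RNA in these lower classes was not tested.

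**Figure D2:**
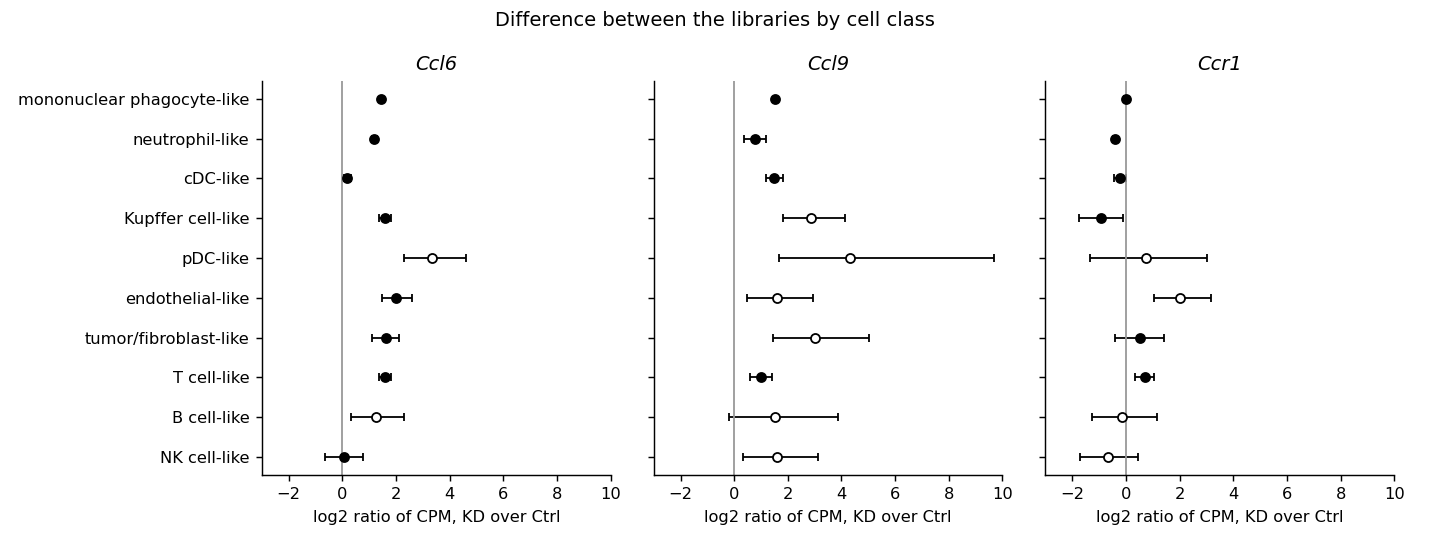
Log2 ratio of CPM, KD over Ctrl (horizontal), for each gene and cell class, with exact conditional binomial intervals for counting error; open circles mark classes with fewer than 20 Ctrl UMIs of the gene and the gray line marks 0. Ccl6 and Ccl9 lie right of 0 in mononuclear phagocyte-like cells (1.45 and 1.52), while Ccr1 lies at -0.0053 there and at -0.41 in neutrophil-like cells.

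Over all cells the receptor behaved differently from its level in either of its main classes. Ccr1 had 7141 UMIs or 111 CPM in Ctrl and 10864 UMIs or 176 CPM in KD, a log2 ratio of 0.66 (0.62 to 0.71), although it was level in mononuclear phagocyte-like and lower in neutrophil-like cells. Neutrophil-like cells made up 8.22% of Ctrl and 22.6% of KD cells, and they held 27.3% of the Ccr1 UMIs in Ctrl and 53.4% in KD. Per cell of the library, Ccr1 went from 0.728 to 1.07 UMIs. With the KD mean UMIs per cell of each class and the Ctrl shares of the classes it came to 0.843 UMIs. With the Ctrl means and the KD shares it came to 0.964 UMIs. These means are not scaled to depth, unlike CPM. Median depth was 6349 UMIs in Ctrl and 7918 in KD in mononuclear phagocyte-like cells, and 2170 and 2858 in neutrophil-like cells. For Ccl6 the per-cell values were 1.67 and 4.65 UMIs, and the same exchanges gave 5.20 and 1.52 UMIs. Ccl9 went from 0.426 to 1.14 UMIs, with 1.40 and 0.346 UMIs after the exchanges. Most ligand UMIs came from mononuclear phagocyte-like cells, which were 32.7% of Ctrl and 25.8% of KD cells but held 81.6% and 74.4% of the Ccl6 UMIs and 86.9% and 86.2% of the Ccl9 UMIs. Neutrophil-like cells held 4.90% of the Ccl6 UMIs in Ctrl and 15.3% in KD. With 1 library per group, the class shares cannot be told apart from traits of the library.

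**Figure D3:**
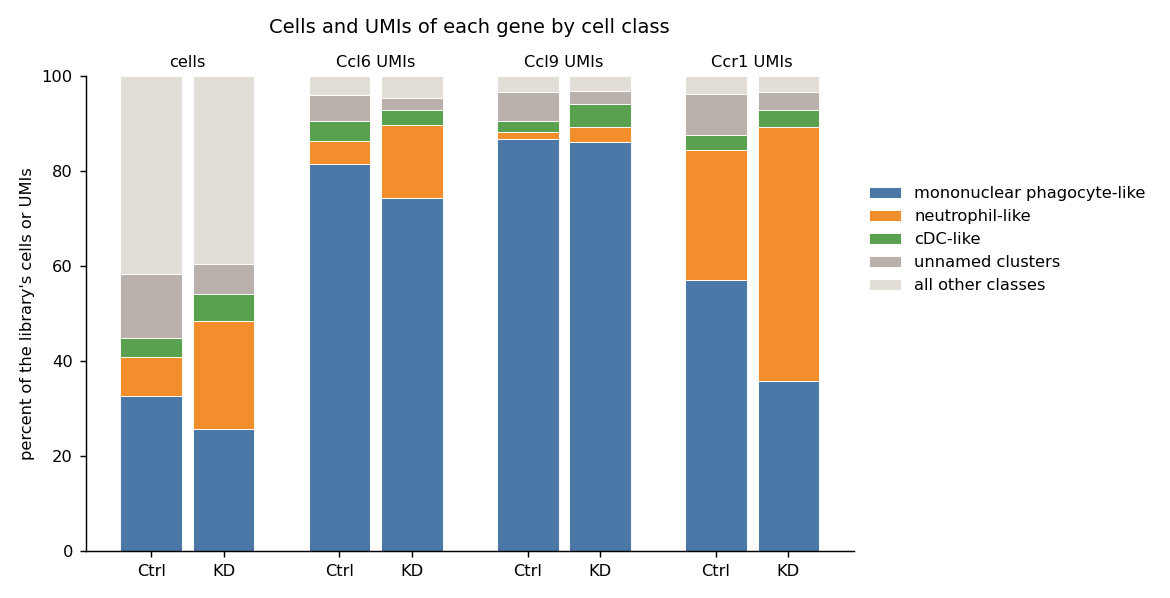
Stacked percent of each library's cells (left pair of bars) and of its Ccl6, Ccl9 and Ccr1 UMIs held by each cell class, for Ctrl and KD. Mononuclear phagocyte-like cells hold 81.6% and 74.4% of the Ccl6 UMIs, and the neutrophil-like share of Ccr1 UMIs is 27.3% in Ctrl and 53.4% in KD.

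The mononuclear phagocyte-like cells were split into 11 sub-clusters, and the libraries filled them unequally. The same chemokine symbols were left out, and Pf4 was again not among them. Sub-cluster 5 had 20 Ctrl and 542 KD cells (96.4% from KD) and was led by Ltc4s, Cxcl3, Il6, Cxcl1, Fabp7 and Pf4. It carried 5 of 8 monocyte markers (Vcan, Fn1, Chil3, F13a1 and F10), while Ly6c2, Plac8 and Ms4a4c did not pass. Its Ccl6 level was 3699 CPM (3396 to 4022) in Ctrl and 3040 CPM (2991 to 3091) in KD, above those of sub-clusters 0 to 4 in both libraries, and its Ccl9 level was 761 and 760 CPM. Sub-cluster 8 had 1 Ctrl and 51 KD cells, was led by Pf4, Ccl6, Ltc4s, Arg1, Spp1 and Folr2, and held 15253 CPM of Ccl6 and 2318 CPM of Ccl9 in KD. Since nearly all cells of both came from KD, they may be that library and not a cell type. Sub-cluster 5 was 20.6% of the KD cells of the class and held 40.5% of their Ccl6 and 35.6% of their Ccl9 UMIs, and sub-cluster 8 was 1.94% of the cells and held 8.81% and 4.71%.

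Within sub-cluster 5, where the level was high in both libraries, the Ccl6 log2 ratio was -0.28 (-0.41 to -0.16), and the other sub-clusters had log2 ratios from 0.12 to 2.03. In sub-cluster 0, led by Hspa1a, Hspa1b and Fosb (963 Ctrl and 563 KD cells), Ccl6 went from 502 to 655 CPM, a log2 ratio of 0.38 (0.31 to 0.46). The macrophage-like sub-cluster 1, led by Mmp12, Ccl8 and Mgl2 (289 and 566 cells), went from 727 to 1345 CPM, 0.89 (0.82 to 0.96). The monocyte-like sub-cluster 2, with Chil3 and Vcan (375 and 455 cells), went from 640 to 891 CPM, 0.48 (0.38 to 0.57). In sub-cluster 3, led by Inhba, Il1a and Nos2 (538 and 137 cells), the levels were 659 and 715 CPM, 0.12 (-0.0040 to 0.24), within counting error. Sub-cluster 4, led by Ifitm1, Upp1 and Ass1 (509 and 108 cells), went from 673 to 898 CPM, 0.42 (0.28 to 0.55). The widest gap of these was in sub-cluster 6, led by cell cycle genes (441 and 107 cells), with 333 and 1234 CPM, 1.89 (1.79 to 1.99). Ccl9 had log2 ratios of 0.75, 1.35, 0.41, 0.65, 0.95 and 2.07 in sub-clusters 0, 1, 2, 3, 4 and 6 in that order, so that its point value exceeded that of Ccl6 in each of these but sub-cluster 2. Sub-clusters 7 and 10, in which 64.3% to 75.7% of cells per library were marked as likely doublets, and sub-cluster 9, with 30 and 14 cells, had Ccl6 log2 ratios of 1.27 to 2.03. Over the 11 sub-clusters the interval lay above 0 in 8 for Ccl6, 9 for Ccl9 and 1 for Ccr1 and below 0 in 1, 0 and 0.

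Because of the unequal filling, the size of the difference depended on it. With the sub-clusters weighted in both libraries by their share of the Ctrl UMIs, the log2 ratio was 0.73 for Ccl6, 1.02 for Ccl9 and -0.020 for Ccr1. Leaving out sub-clusters with over 90% of cells from 1 library gave 0.88, 1.17 and 0.081. Without every cell that held a Pf4 or Ltc4s UMI, which left 2769 Ctrl and 1714 KD cells, it was 0.79, 1.15 and 0.068. The Ccr1 level varied little among sub-clusters 0 to 6, from 136 to 224 CPM in Ctrl and from 132 to 210 CPM in KD, and was 78.6 CPM (44.9 to 128) in sub-cluster 8 of KD, the one with the highest ligand levels.

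Neutrophil-like cells showed a similar unevenness. Sub-cluster 2, led by interferon-induced genes such as Cxcl10, Gbp5 and Ifit2, held 437 Ctrl and 155 KD cells, with Ccl6 at 197 CPM (169 to 228) and 650 CPM (573 to 736). Sub-cluster 0, led by Saa3, held 79 and 864 cells, with 347 and 667 CPM. Sub-cluster 1, led by Lypd6b and Cxcl3, held 189 and 504 cells, with 832 and 1265 CPM. Sub-cluster 3, neutrophil-like and led by Retnlg, Prok2 and Stfa2, held 7 Ctrl and 415 KD cells, with 1419 CPM in KD and 29 UMIs in the 7 Ctrl cells. Sub-cluster 4, immature neutrophil-like with the granule genes Camp, Ltf and Ngp, held 32 and 141 cells, with 221 and 276 CPM of Ccl6. Of the 8 sub-clusters it had the least Ccr1, 392 CPM (306 to 495) and 348 CPM (313 to 386), against 980 to 1284 CPM in Ctrl and 904 to 1077 CPM in KD in sub-clusters 0 to 2. Sub-clusters 0 and 3 had over 90% of their cells from KD and may be that library. In sub-clusters 0 to 2, Ccr1 had log2 ratios of -0.062 (-0.23 to 0.10) in the interferon-led, -0.51 (-0.71 to -0.29) in the Saa3-led and -0.088 (-0.24 to 0.065) in the Lypd6b-led sub-cluster. With the sub-clusters weighted by their share of the Ctrl UMIs, the log2 ratio was 1.00 for Ccl6 and -0.14 for Ccr1.

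**Figure D4:**
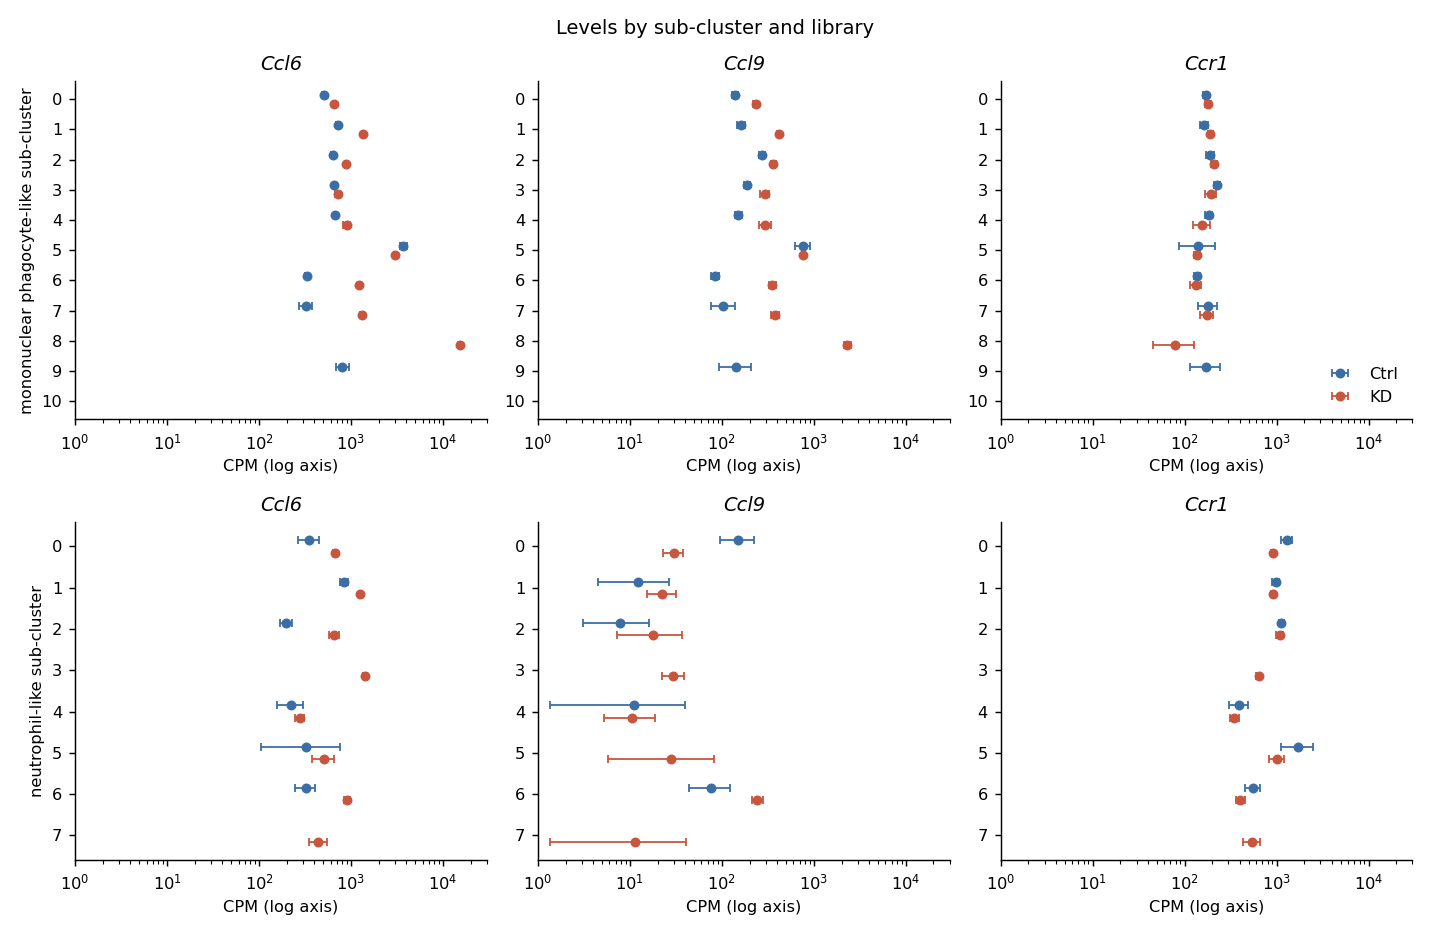
CPM (horizontal, log axis) of each gene by sub-cluster of the mononuclear phagocyte-like (top) and neutrophil-like cells (bottom), Ctrl in blue and KD in red, with exact Poisson intervals for counting error; libraries with fewer than 20 cells or no UMI in a sub-cluster are not drawn. Mononuclear phagocyte-like sub-clusters 5 and 8 stand apart for Ccl6 (3040 and 15253 CPM in KD), while Ccr1 lies between 132 and 224 CPM in mononuclear phagocyte-like sub-clusters 0 to 6.

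Other ligands of Ccr1 did not share the pattern of Ccl6 and Ccl9 in mononuclear phagocyte-like cells. Ccl3, Ccl5 and Ccl7 had log2 ratios of -0.12 (-0.17 to -0.065), -0.73 (-0.78 to -0.68) and -0.24 (-0.31 to -0.16), and 0 of the 3 were past 2-fold. Of 5 other CC chemokines, Ccl24, an attractant of eosinophils, was past 2-fold higher, from 15.3 to 156 CPM, and Ccl8 past 2-fold lower, from 229 to 68.1 CPM. Ccl2, Ccl4 and Ccl12 lay between these limits. In neutrophil-like cells Ccl3 went from 2326 to 686 CPM, a log2 ratio of -1.76 (-1.82 to -1.71), and Ccl4 from 4973 to 1323 CPM, -1.91 (-1.95 to -1.87), opposite to Ccl6.

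Among the other receptors, none was past 2-fold in mononuclear phagocyte-like cells. Ccr2, the receptor that brings monocytes out of the bone marrow, went from 279 to 390 CPM there (0.48, 0.44 to 0.53), and in T cell-like cells it stood at 50.8 CPM in Ctrl and 104 CPM in KD. Ccrl2, which binds chemerin and does not signal like a chemokine receptor, went in neutrophil-like cells from 2754 to 553 CPM (-2.32, -2.37 to -2.26). The scavenging receptors Ackr1 and Ackr2 and the receptor Ccr3 had 0 to 5 UMIs in each library of mononuclear phagocyte-like cells, too few to compare.

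Of 5 proteases known to trim such ligands, the 3 with at least 200 UMIs in mononuclear phagocyte-like cells were past 2-fold higher in KD: Elane with 34 and 497 UMIs (3.93, 3.43 to 4.48), Ctsg with 30 and 250 UMIs (3.12, 2.57 to 3.72) and Prtn3 with 586 and 1892 UMIs (1.75, 1.62 to 1.89). These are serine proteases of neutrophil granules, made by immature myeloid cells, and in CPM Elane stood at 1.45 and 22.1. The mast cell proteases Mcpt4 and Cma1 had 0 UMIs in Ctrl and 1 in KD each. All 13 genes of signalling below the receptor, among them Gnai2 (0.066, 0.032 to 0.099), the subunit that couples it, and Rgs1 (-0.41, -0.45 to -0.37), a regulator that ends the signal, lay within 2-fold. The 6 counted myeloid transcription factors did so too, from Irf8 at -0.94 (-0.99 to -0.90) to Cebpa at 0.85 (0.74 to 0.96), with Spi1, which encodes PU.1, at -0.018 (-0.057 to 0.021). Over all lists without the 3 genes themselves, 33 of 40 genes were counted, 4 were past 2-fold higher and 1 past 2-fold lower, against 1.72% and 1.8% of all genes, and the median log2 ratio was 0.0083, against 0.011 over all 9732 genes. In neutrophil-like cells 22 were counted, with 1 higher (Cebpe) and 3 lower (Ccl3, Ccl4 and Ccrl2), against 4.83% and 6.04% of all genes, and a median of -0.23 against 0.12 over all 4306 genes.

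Over mononuclear phagocyte-like cells pooled from all sub-clusters, the 2 ligands went together more than either went with the receptor. After thinning, a Ccl9 UMI was seen in 25.0% (22.6% to 27.5%) of Ctrl mononuclear phagocyte-like cells with a Ccl6 UMI and in 12.2% (10.7% to 13.7%) of those without one. In KD these shares were 47.6% (45.2% to 50.1%) and 23.8% (21.2% to 26.6%). A Ccr1 UMI was seen in 23.0% (20.7% to 25.4%) of Ctrl cells with Ccl6 and 19.4% (17.7% to 21.3%) of those without, and in 20.8% (18.8% to 22.8%) and 22.5% (19.9% to 25.3%) in KD. Cells of 1 library share its depth and free RNA, so these shares are descriptions. The sub-clusters also differed in both ligands. In KD, Ccl6 and Ccl9 were seen after thinning in 82.4% and 58.0% of sub-cluster 5 and in 50.3% and 22.4% of sub-cluster 0. The part of this mixture in the shares was not tested.

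Across cell classes the levels of the 3 genes were set beside those of 8748 genes, as Pearson's r of log2(CPM + 1) over 18 points, 9 classes in each of the 2 libraries, which share their depth and free RNA. Nearest to Ccl6 were Fcgr3 (0.954), an Fc receptor of myeloid cells, Clec4a2 (0.947), Emilin2 (0.941), Gda (0.940) and Sirpb1c (0.938). Ccl9 was nearest to Ccl6 (0.918), followed by Csf1r (0.907), the receptor that sustains macrophages, Clec4a1 (0.883), Adgre4 (0.882) and Ms4a6d (0.878). For Ccr1 they were Mcemp1 (0.972), Mefv (0.972), Sirpb1b (0.968), Il1b (0.965) and Pilrb2 (0.965), each highest in neutrophil-like cells. The r of Ccr1 was 0.889 with Ccl6 and 0.703 with Ccl9.

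**Figure D5:**
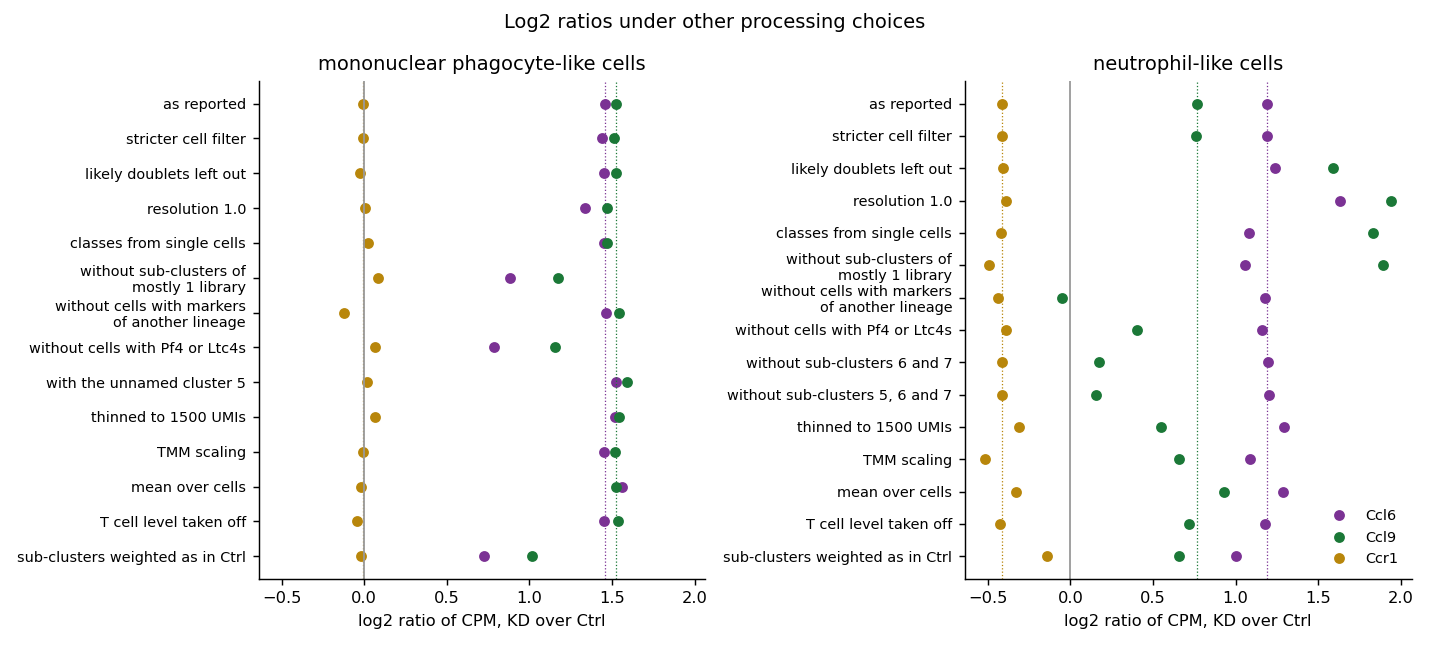
Log2 ratio of CPM, KD over Ctrl (horizontal), for Ccl6, Ccl9 and Ccr1 as reported (top row, dotted lines) and under each other processing choice, in mononuclear phagocyte-like (left) and neutrophil-like cells (right). In mononuclear phagocyte-like cells Ccl6 runs from 0.73 to 1.56 and Ccl9 from 1.02 to 1.59, both right of 0, and in neutrophil-like cells Ccl9 runs from -0.054 to 1.94.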

How the data were processed

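CD45+ cells of liver metastases were profiled with droplet 3′ RNA sequencing, 1 library for each hairpin in the labels. The authors deposited raw UMI counts for every gene in every barcode. The submitters' processing notes name Cell Ranger 7.1.0 and GRCm39. The lowest deposited barcode held 500 UMIs. The limits of the study were applied (200 to 6000 genes, up to 30000 UMIs, up to 10% of them mitochondrial) and left 19999 of 21359 barcodes, a few more than the study kept. Doublets were handled by these limits alone, and Scrublet (scanpy 1.11.5, 0.8% per 1000 cells; 771 Ctrl and 830 KD cells marked) was an alternative.

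Counts were log-normalized and clustered in Seurat 5.3.0 under R 4.3.3 with 20 components, resolution 0.5 and no integration, which gave 19 clusters. The 2000 variable genes were taken without Ccl, Cxcl, Ccr, Cxcr, Xcl, Xcr, Cx3c and Ackr symbols, a rule that did not bar Pf4. A marker counted at a log2 fold of at least 1 (0.5 in sub-clusters) over the other cells in at least 10% of cells, and a name needed 3 markers and no more of another class among the 10 leading genes. For sub-clusters, the need for an own marker among the leading genes was added after the clusters had been seen. The libraries filled the mononuclear phagocyte-like clusters unequally: the macrophage-like cluster had 2406 Ctrl and 1444 KD cells, the monocyte-like cluster 381 and 1085. 3 clusters stayed unnamed, 1 of them leaning to macrophages (883 and 393 cells).

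UMIs were summed per class and scaled to CPM, with exact Poisson intervals for levels, exact conditional binomial intervals for log2 ratios and exact Clopper-Pearson intervals for shares of cells, all at 95%. Genes with at least 200 UMIs in a class were compared, and higher or lower meant past 2-fold. TMM factors came from edgeR 4.0.16. The code for the ratio and its interval was run on simulated independent counts. Such counts hold the interval's own assumption, so they do not bear on the spread between cells or mice. Named genes are the 3 genes, fixed lists of ligands, receptors, proteases, signalling genes and transcription factors, and the 5 genes most like each of the 3 (Pearson's r, log2 of CPM + 1, at least 1000 UMIs, classes with at least 50 cells in each library). 1 receptor of these lists is counted but not reported by name here. Leading genes of sub-clusters were named after their values were seen. The 3 genes and all lists were chosen with earlier results of these data known. Alternatives were a stricter filter, doublet removal, resolution 1.0, classes from single cells, thinning to 1500 UMIs, TMM, means over cells, subtraction of the T cell level, and leaving out or reweighting groups of cells.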

Additional observations from a re-analysis of the deposited data

Results flagged for a closer look

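Beyond counting error, Ccr1 was higher in KD in 2 of 10 classes and lower in 2. The log2 ratio came to 0.70 (0.35 to 1.05) in T cell-like cells and -0.41 (-0.49 to -0.34) in neutrophil-like cells. On fewer UMIs it was 2.01 (1.04 to 3.17) in endothelial-like and -0.93 (-1.76 to -0.11) in Kupffer cell-like cells. The difference between the classes was not tested, since each group is 1 library. The level in T cell-like cells was 0.696% and 1.51% of that in neutrophil-like cells. T cell-like cells were themselves part of the gauge of free RNA. B cell-like and NK cell-like cells had Ccr1 log2 ratios of -0.13 (-1.28 to 1.15) and -0.66 (-1.73 to 0.43), within counting error. The part of free RNA in the T cell-like value was not tested. All cells together held more Ccr1 in KD (111 and 176 CPM).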

How the results depend on the processing

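With 1 library per group no replicate could be left out, and no alternative bears on the spread between mice. No paired analysis was possible because each group is 1 library. Over 13 alternatives the log2 ratio in mononuclear phagocyte-like cells ran from 0.73 to 1.56 for Ccl6 and from 1.02 to 1.59 for Ccl9, positive in all 13. Ccr1 ran from -0.12 to 0.081. In neutrophil-like cells, over 14 alternatives, Ccl6 ran from 1.00 to 1.63 and Ccr1 from -0.52 to -0.14, with their direction in all 14, and Ccl9 from -0.054 to 1.94, positive in 13. The leaving out of cells with Pf4 or Ltc4s, the reweighting, the added cluster and the removal of neutrophil-like sub-clusters 5 to 7 were chosen after seeing the data.

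Values that left the counting interval in mononuclear phagocyte-like cells were as follows, and their cause was not tested beyond the cells that each alternative left out. For Ccl6 they were 1.34 at resolution 1.0, 0.88 without the sub-clusters mostly of 1 library, 0.79 without cells with Pf4 or Ltc4s, 1.53 with the unnamed cluster that leaned to macrophages, 1.52 thinned, 1.56 as a mean over cells and 0.73 with sub-clusters weighted as in Ctrl. For Ccl9 they were 1.17 without the same sub-clusters, 1.15 without Pf4 or Ltc4s, 1.59 with the unnamed cluster and 1.02 weighted. For Ccr1 they were 0.081 without the sub-clusters, -0.12 without cells with S100a8 or S100a9, 0.068 without Pf4 or Ltc4s and 0.063 thinned.

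In neutrophil-like cells Ccl6 was 1.63 at resolution 1.0, 1.08 with classes set from single cells, 1.06 without the sub-clusters mostly of 1 library and 1.00 weighted. Ccl9 was 1.59 without likely doublets, 1.94 at resolution 1.0, 1.83 with classes from single cells and 1.89 without those sub-clusters. It was 0.17 without sub-clusters 6 (macrophage genes) and 7 (B cell genes), and 0.15 without sub-cluster 5, of uncertain name, as well. Without cells with C1q genes it was -0.054 (-0.56 to 0.48), within counting error. Ccr1 was -0.49 without the sub-clusters mostly of 1 library, -0.31 thinned, -0.52 under TMM, -0.33 as a mean over cells and -0.14 weighted. The shares of genes past 2-fold stayed within 1.5 times when genes with at least 50 UMIs were counted. Depth limits Ccl9 in Ctrl, with 55 UMIs in neutrophil-like, 8 in Kupffer cell-like and 1 in pDC-like cells.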
